A study of Mus musculus with 60 samples.

Results

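This comparison sets islets in which MYC had been switched on against islets in which it had not, 72 h after the first dose. It takes 11 of the 60 Affymetrix arrays of the series: 6 MycON arrays (3 with exendin-4 and 3 with water) against 5 MycOFF arrays (3 with exendin-4 and 2 with water), chosen by their titles. All mice were pIns-MYCERTAM males on a mixed CBA-C57BL/6 background, so MycOFF mice carried the transgene too. MycON mice received 1 mg of 4-hydroxytamoxifen per day into the abdominal cavity, and MycOFF mice received peanut oil. Exendin-4 mice were injected under the skin with 50 µg/kg of this GLP-1 receptor agonist, also called exenatide, and the others with water, starting 2 days before. One label gives the age as 8 to 12 weeks, while the treatment protocol calls the mice adult and gives an age in months. The submitters left out MycOFF water replicate 2 of this time for poor reproducibility. Islets were cut by laser from frozen sections of 15 µm. No group without the fusion received 4-hydroxytamoxifen, so an effect of the drug itself and the MYC effect cannot be told apart. The labels name no animal for an array, and p-values measure the spread between these arrays.

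In this model the insulin promoter confines the transgene to beta cells. Its product joins MYC to an altered ligand-binding domain of the oestrogen receptor, and 4-hydroxytamoxifen makes this protein an active transcription factor. MYC with its partner MAX binds the E-box and is known for driving ribosome production, nucleotide synthesis and entry into the cell cycle. In beta cells its activation is known to give proliferation followed by cell death and loss of islet mass, and macrophages are the cells that clear dying cells in most tissues.

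Each deposited value gives, in log2 units, how far a probe set lay from its own median over the 60 arrays. Such values hold no level, and no gene can be called absent or set against another gene. The islet label could therefore not be checked for the presence of its markers. Across the 11 arrays the standard deviation of all probe sets ran from 0.388 to 0.811. The widest-ranging probe set stood for its gene, 13176 genes were tested in limma, and passing means an adjusted p (Benjamini-Hochberg) under 0.05. Differences below are MycON minus MycOFF on the log2 scale with the injection as a covariate, ± is the standard error (SE), and a list's median is set against a median of -0.04 over all genes tested. A pair of arrays stood apart. MycOFF exendin-4 replicate 2 had Ighm, the heavy chain of immunoglobulin M, at 9.33, with 3.34, -0.02, 2.56 and 3.30 in the other MycOFF arrays. Its lymphocyte marker mean was 2.10. That mean rested mostly on Ighm, as Coro1a stood at -0.03, Ms4a1 at 0.86, Cd4 at 0.35 and Cd8a at -0.01 in this array. Its granulocyte and monocyte marker mean was 2.58, with -0.38, -0.34, -0.06 and 0.66 in the other MycOFF arrays. The left-out MycOFF water replicate 2 had Ighm at 12.8 and a lymphocyte marker mean of 5.41. There Ms4a1 stood at 8.69, Coro1a at 5.81, Cd8a at 0.10 and Cd4 at -0.32. This left-out array had means of 2.56 for macrophage markers, 1.61 for lipid and lysosome genes and 2.60 for stromal markers. For mitosis its mean was 2.83 and for DNA replication 2.25. All of these means lay within the range of the MycON arrays, and its beta cell identity mean was -2.74. MycON water replicate 3 had a macrophage marker mean of -0.18, with 1.74 to 3.04 in the other MycON arrays. Counts are therefore also given without these 2 arrays, a choice made after seeing the data. Because macrophage markers set MycON water replicate 3 apart, counts of macrophage genes without it follow in part from this choice. The same holds for other genes in which either array lay nearest the other group.

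Only 5 genes passed, all higher in MycON islets (0.0379% of the genes tested), and none passed as lower. Cd36, a scavenger receptor that takes up oxidised lipoproteins and fatty acids, stood at 3.59, 5.04 and 3.38 in MycON exendin-4 and at 3.78, 4.08 and 1.52 in MycON water arrays, against -0.16, -0.20 and -0.80 in MycOFF exendin-4 and -0.82 and -0.01 in MycOFF water arrays. The groups did not overlap, and the lowest MycON array was MycON water replicate 3. Cd36 was 16.1-fold higher, a difference of 4.01 ± 0.50 (SE, n = 6 and 5; limma adjusted p = 0.0489), and its 2 other probe sets gave 2.52 and 2.28. Clec4n, a C-type lectin receptor of myeloid cells, stood at 2.17, 3.46 and 4.34 with exendin-4 and 2.13, 2.78 and 1.49 with water in MycON islets, against -1.04, -1.43 and -0.12 with exendin-4 and -0.32 and -1.79 with water in MycOFF islets. Again every MycON array lay above every MycOFF array. The difference was 3.75 ± 0.48 (13.4-fold; limma adjusted p = 0.0489), and its other probe set gave 1.09.

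Fabp5, a carrier of fatty acids in the cytosol, stood at 1.46, 3.02 and 3.81 in MycON exendin-4 and 1.32, 1.65 and 0.26 in MycON water arrays, against -1.97, -1.40 and -1.75 in MycOFF exendin-4 and -1.72 and -1.44 in MycOFF water arrays. The MycOFF arrays lay close together and all below the MycON arrays. Fabp5 rose by 3.66 ± 0.49 (12.7-fold; limma adjusted p = 0.0489), with 2.66 from its other probe set. Slc15a3, a transporter of peptides and histidine in the lysosome membrane, stood at 3.95, 3.37 and 4.49 in MycON exendin-4 and 2.67, 1.64 and 1.05 in MycON water arrays, against -0.19, 0.15 and -0.48 in MycOFF exendin-4 and -0.19 and -0.65 in MycOFF water arrays. Here the 3 MycON exendin-4 arrays also lay above the 3 MycON water arrays. Slc15a3 rose by 3.26 ± 0.43 (9.61-fold; limma adjusted p = 0.0489).

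Cenpp, a subunit of the centromere complex on which kinetochores are built, had the smallest p. It stood at 1.61, 1.93 and 1.70 in MycON exendin-4 and 1.84, 1.31 and 2.74 in MycON water arrays, against -0.65, -0.81 and -0.73 in MycOFF exendin-4 and -0.60 and -0.67 in MycOFF water arrays. Unlike in the other 4 genes, MycON water replicate 3 was the highest array. The difference was 2.53 ± 0.24 (5.77-fold; limma adjusted p = 0.0089), while 2 other probe sets of Cenpp gave 0.13 and -0.07.

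**Figure D1:**
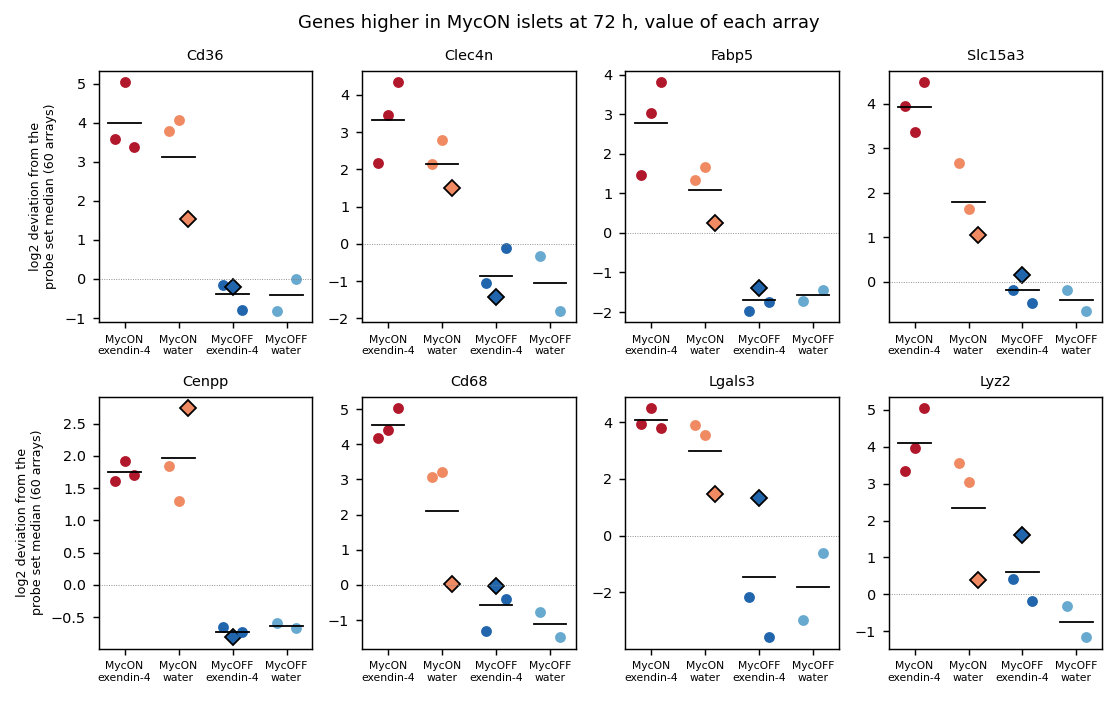
Log2 deviation from the probe set median (vertical axis) of each 72 h array for the 5 genes that passed and for Cd68, Lgals3 and Lyz2, which did not; the groups run from MycON exendin-4 to MycOFF water, and the line is the group mean. Diamonds mark MycON water replicate 3 and MycOFF exendin-4 replicate 2: for Cd68 the MycON diamond lies at 0.04, with 3.07 to 5.02 in the other MycON arrays.

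At an unadjusted p under 0.05 there were 938 genes (7.12%), and the count of passing genes moved widely with the arrays. It was 52 (0.395%) without MycON water replicate 3, 23 (0.175%) without MycOFF exendin-4 replicate 2, and 0 or 1 without any other single array. Without both of the named arrays it was 133 (1.01%), with 119 higher (0.903%) and 14 lower (0.106%). A fit of all 20 group means over the 52 kept arrays, in which other times help estimate the spread, called 182 genes (1.38%) at 72 h, 152 higher (1.15%) and 30 lower (0.228%), among them all of the 5. That fit takes the same spread for a gene at all times. Where a gene varied more at 72 h, it understates the spread there and gives too low a p. Compared with the fit of the 72 h arrays alone, its SE was smaller for Ighm and Fcgr4, for example, and larger for Chek1. Genes called only by that fit thus rest in part on the spread at other times. In 52 genes (0.395%) all 6 MycON arrays lay above all 5 MycOFF arrays, and in 57 (0.433%) they lay below. In the gene lists that follow, "by the 52-array fit" names that second fit.

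By their mean, macrophage markers were higher in 5 of the 6 MycON arrays than in any kept MycOFF array. Of 30 markers 27 were tested and none passed in the 11-array fit, yet all 27 differences were above 0, with a median of 1.98. The list mean was 1.81, 2.06 and 3.04 in MycON exendin-4 and 2.06, 1.74 and -0.18 in MycON water arrays, against -0.23, 0.58 and -0.41 in MycOFF exendin-4 and 0.04 and -0.43 in MycOFF water arrays. By the 52-array fit 15 of the 27 were higher and none lower. Without MycON water replicate 3 the 11-array fit called 10, and without both arrays that stood apart it called 15, with a median of 2.48. MycON water replicate 3 was set apart by this same list, so the rise in these counts follows in part from that choice and adds no support. In islets cut as whole pieces, more cells of a type and more RNA per cell cannot be told apart.

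By role, the lysosome glycoprotein Cd68 stood at 4.18, 4.41 and 5.02 in MycON exendin-4 and 3.07, 3.22 and 0.04 in MycON water arrays, against -1.30, -0.04 and -0.40 in MycOFF exendin-4 and -0.76 and -1.48 in MycOFF water arrays. Its difference of 4.28 ± 0.62 did not pass (limma adjusted p = 0.0711). Without MycON water replicate 3, which was set apart by its macrophage markers, it was 4.78 (limma adjusted p = 0.00104). The lysozymes Lyz2 and Lyz1 differed by 3.31 ± 0.59 and 2.55 ± 0.45 (limma adjusted p = 0.114 for each), and C1qb and C1qc, chains of the first complement component, by 3.29 and 2.32. Tyrobp, the signalling adaptor of many myeloid receptors, differed by 2.75, the IgG receptor Fcgr3 by 2.48 and the scavenger receptor Msr1 by 2.33. These 8 genes were all called higher by the 52-array fit. At the other end stood Spi1, the transcription factor PU.1 of the myeloid lineage, at 0.46, Cd163, a haemoglobin scavenger receptor, at 0.40, and Cd14, a co-receptor for endotoxin, at 0.08.

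Genes of lipid uptake, galectins and lysosomal digestion were also mostly higher in MycON islets. Of 30 members 26 were tested and 2 passed, Cd36 and Fabp5, against 5 of 13176 genes over all, with a median difference of 1.58 and 24 members above 0. Their mean was lowest at 0.07, with a median of 1.33 and a highest value of 2.25 over the MycON arrays, against -0.70, -0.60, -0.26, -0.17 and -0.13 in the MycOFF arrays, so the groups did not overlap. The 52-array fit called 12 higher. This list was chosen with earlier results of these data known, so its share of passing genes adds no support. Lgals3, which encodes galectin-3, had the widest difference of the list: it stood at 3.94, 4.49 and 3.80 in MycON exendin-4 and 3.92, 3.54 and 1.46 in MycON water arrays, against -2.17, 1.34 and -3.58 in MycOFF exendin-4 and -2.98 and -0.62 in MycOFF water arrays. The groups were apart, but the MycON and MycOFF arrays that stood apart nearly met. The difference was 5.20 ± 0.85 (36.9-fold; limma adjusted p = 0.0904), and without MycOFF exendin-4 replicate 2 it was 5.86 (limma adjusted p = 0.0157).

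Among the enzymes of digestion, the protease Ctsb differed by 3.00 ± 0.48 and the lipase Lipa, which splits cholesteryl esters in the lysosome, by 2.79 ± 0.46 (limma adjusted p = 0.0904 for each). The acid phosphatase Acp5 differed by 2.90, the macrophage elastase Mmp12 by 2.67, and Mertk, a receptor by which phagocytes bind dying cells, by 1.73. All of these were called by the 52-array fit. Apoe, which carries lipids out of cells, differed by 3.48 and was not called by either fit. The membrane proteins Lamp1 and Lamp2, general to lysosomes, stood at -0.11 and 0.13, and Trem2, a lipid receptor of macrophages, at -0.02.

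**Figure D2:**
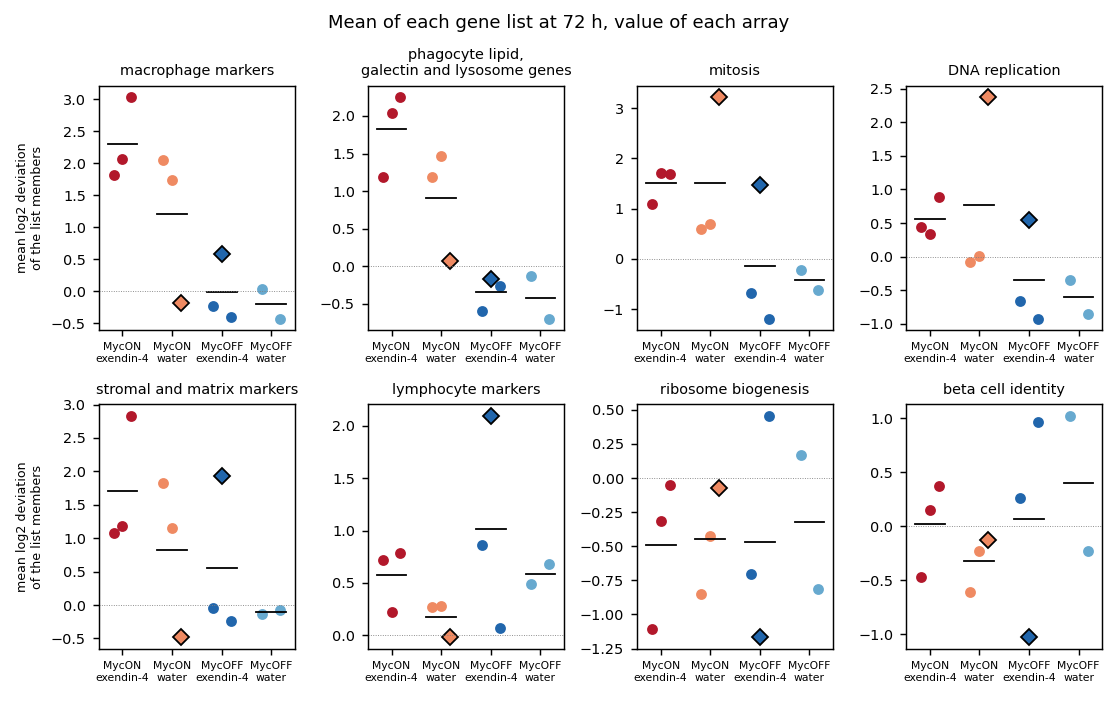
Mean log2 deviation of the tested members (vertical axis) of 8 gene lists in each 72 h array, with groups from MycON exendin-4 to MycOFF water, the line at the group mean and diamonds for the 2 arrays that stood apart. MycON water replicate 3 is the lowest MycON array for macrophage markers (-0.18) and the highest for mitosis (3.23) and DNA replication (2.38); MycOFF exendin-4 replicate 2 is the highest MycOFF array for mitosis (1.47), stromal markers (1.93) and lymphocyte markers (2.10).

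By their mean, genes of mitosis were higher in 3 of the 6 MycON arrays than in any kept MycOFF array, and MycON water replicate 3 was the highest array. None of the 36 tested members of 39 passed, 35 differences were above 0, and the median was 1.70. The list mean was 1.10, 1.71 and 1.70 in MycON exendin-4 and 0.59, 0.69 and 3.23 in MycON water arrays, against -0.68, 1.47 and -1.19 in MycOFF exendin-4 and -0.22 and -0.61 in MycOFF water arrays. MycOFF exendin-4 replicate 2 reached into the MycON range. The 52-array fit called 14 higher. Without both arrays that stood apart the 11-array fit called 8 with a median of 1.74.

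Cdc20, the activator of the anaphase-promoting complex, stood at 1.91, 2.47 and 2.23 in MycON exendin-4 and 0.88, 1.31 and 1.93 in MycON water arrays, against -2.33, 2.64 and -2.74 in MycOFF exendin-4 and -1.02 and -2.69 in MycOFF water arrays. One MycOFF array, exendin-4 replicate 2, was higher than all MycON arrays. Cdc20 differed by 3.11 ± 0.86 (limma adjusted p = 0.353) and, without both arrays that stood apart, by 3.92 (limma adjusted p = 0.00613). The MycOFF array above all MycON arrays was among those left out, so the lower p follows in part from that choice. The microtubule-binding Hmmr differed by 3.04, the centromeric histone Cenpa by 2.84 and the chromosomal passenger subunit Cdca8 by 3.12, and each was called by the 52-array fit. Ube2c, the ubiquitin-conjugating enzyme that works with the anaphase-promoting complex, stood at 2.96, 3.34 and 2.99 in MycON exendin-4 and 0.26, 1.43 and 2.70 in MycON water arrays, against -0.64, 0.64 and -0.59 in MycOFF exendin-4 and -0.02 and -0.10 in MycOFF water arrays. All but 1 of the MycON arrays lay above all MycOFF arrays. The difference was 2.51 ± 0.49 (limma adjusted p = 0.176). Top2a, the topoisomerase that untangles sister chromatids, differed by 2.75 ± 0.98 and the proliferation marker Mki67 by 2.87 ± 1.20 (limma adjusted p = 0.574 and 0.648).

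The promoters of several members are shown because the mitosis and macrophage lists differed in the short motifs their promoters held. They span 250 bases before to 50 after the annotated start, from RefSeq on GRCm38.p6, and 10622 of the 13176 genes tested had one. Capitals mark the searched letters on either strand: CCAAT for the CCAAT box, TTTGAA for the cell cycle homology region and AGGAAGT for PU.1. Cd36 is the called gene with matches; Ube2c and Lyz1 were picked after their values were seen, as the members with the smallest p on the mitosis and macrophage lists whose promoter held both cell cycle motifs or the PU.1 motif.
Cd36, chr5:17835847-17836146, minus strand: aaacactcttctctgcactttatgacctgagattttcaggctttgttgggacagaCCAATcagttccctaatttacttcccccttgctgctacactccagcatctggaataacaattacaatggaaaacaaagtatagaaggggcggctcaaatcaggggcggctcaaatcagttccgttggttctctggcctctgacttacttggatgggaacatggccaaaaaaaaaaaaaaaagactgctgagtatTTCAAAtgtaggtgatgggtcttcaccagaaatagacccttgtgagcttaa
Ube2c, chr2:164769679-164769978, plus strand: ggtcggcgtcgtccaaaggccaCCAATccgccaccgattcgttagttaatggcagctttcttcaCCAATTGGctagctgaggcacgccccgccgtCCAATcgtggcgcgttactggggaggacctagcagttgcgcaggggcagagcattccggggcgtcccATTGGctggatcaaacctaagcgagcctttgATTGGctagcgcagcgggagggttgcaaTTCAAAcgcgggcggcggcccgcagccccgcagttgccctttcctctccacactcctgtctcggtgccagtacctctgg
Lyz1, chr10:117292819-117293118, minus strand: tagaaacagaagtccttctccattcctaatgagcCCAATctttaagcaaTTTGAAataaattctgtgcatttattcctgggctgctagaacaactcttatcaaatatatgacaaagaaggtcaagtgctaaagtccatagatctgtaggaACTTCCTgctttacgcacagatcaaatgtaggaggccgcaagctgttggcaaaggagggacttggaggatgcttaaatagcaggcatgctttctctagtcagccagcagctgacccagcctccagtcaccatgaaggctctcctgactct
Positions are those of the first base of a match, with -1 for the base just before the annotated start. In Cd36 a CCAAT box lay at -195, and TTCAAA at -1 spanned the start. Ube2c held 6 CCAAT boxes, 2 of which overlapped, and TTCAAA at -29. In Lyz1 ACTTCCT, the PU.1 letters on the other strand, lay at -100, with a CCAAT box at -216 and TTTGAA at -201. The cell cycle homology region was in 76.7% of the 30 mitosis promoters and 35.3% of the 17 macrophage marker promoters, against 14.9% of all promoters. The CCAAT box was in 70.0% of the mitosis and 52.9% of the macrophage marker promoters, against 42.6%. The PU.1 letters were in 41.2% of the 17 macrophage marker promoters, against 10.2% of all. They were in 3 of the 30 mitosis promoters, 1 of the 20 lipid and lysosome promoters and 19.2% of the 26 ribosome biogenesis promoters. The E-box CACGTG was in 6.67% of the mitosis promoters and 0 of the 17 macrophage promoters, against 11.3% of all, and GGCGGGA, the letters of E2F, in 31.0% of 29 DNA replication promoters, against 22.5%. Of the 5 genes that passed, Cd36 and Cenpp had a promoter in the table, and that of Cenpp held none of the 5 motifs. A match is a string of letters and not a measured binding site.

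DNA replication genes were also mostly higher in MycON islets, with wide spread among arrays. Of 38 members 35 were tested, none passed, 32 differences were above 0, and the median was 1.10. The list mean was 0.44, 0.33 and 0.89 in MycON exendin-4 and -0.08, 0.00 and 2.38 in MycON water arrays, against -0.67, 0.54 and -0.93 in MycOFF exendin-4 and -0.35 and -0.85 in MycOFF water arrays. Without MycON water replicate 3 the median was 0.67, so this array alone moved it by over 1.5 times. The 52-array fit called 6 higher, the helicase subunits Mcm5 and Mcm6, the licensing factor Cdt1, the sliding clamp Pcna, the primase subunit Prim1 and the origin subunit Orc6. Without both arrays that stood apart, 2 passed in the 11-array fit, Mcm6 and Mcm4, and the median was 0.83.

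Mcm6 stood at 1.59, 0.50 and 0.68 in MycON exendin-4 and 0.31, 0.34 and 2.75 in MycON water arrays, against -2.94, -0.00 and -2.76 in MycOFF exendin-4 and -0.53 and -2.39 in MycOFF water arrays. The groups were apart, with MycOFF exendin-4 replicate 2 the highest MycOFF array. Its difference of 2.72 ± 0.66 did not pass (limma adjusted p = 0.309), and without both arrays that stood apart it was 2.87 (limma adjusted p = 0.0457). Mcm5 differed by 2.94 ± 0.80 (limma adjusted p = 0.346), and 2 other probe sets gave 0.56 and 0.04. Cdt1 differed by 2.66 ± 0.85 (limma adjusted p = 0.47), with 0.88 and -0.05 from its other sets. Of the 11 DNA repair genes tested none passed and the median was 0.49, against 0.14 without MycON water replicate 3. The 52-array fit called 2 of them higher, among them the checkpoint kinase Chek1 (1.91). Among cyclins, CDKs and their inhibitors the median was -0.00 over 25 genes, and the inhibitors Cdkn1a, Cdkn2a and Cdkn2d stood at 0.71 ± 0.74, 0.26 ± 0.24 and 0.17 ± 0.41.

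Stromal and matrix markers had a median of 0.98 over 22 tested of 23, with 21 above 0 and none past the threshold. Their mean was 1.08, 1.18 and 2.83 in MycON exendin-4 and 1.82, 1.15 and -0.49 in MycON water arrays, against -0.04, 1.93 and -0.24 in MycOFF exendin-4 and -0.13 and -0.07 in MycOFF water arrays. MycON water replicate 3 was the lowest array of all and MycOFF exendin-4 replicate 2 the highest MycOFF array. The matrix protein Postn stood at 2.86, 2.05 and 2.81 in MycON exendin-4 and 2.57, 1.87 and -0.31 in MycON water arrays, against -0.74, -0.43 and -0.31 in MycOFF exendin-4 and -0.06 and -0.17 in MycOFF water arrays. All MycON arrays but MycON water replicate 3 were above all MycOFF arrays. Postn differed by 2.36 ± 0.51 (limma adjusted p = 0.224), and by 2.75 without both arrays that stood apart (limma adjusted p = 0.00349). The MycON array that overlapped the MycOFF arrays was among those left out, so the lower p follows in part from that choice. Postn was called by the 52-array fit, as were Vim, an intermediate filament protein of mesenchymal cells and macrophages (2.30), and the matrix proteoglycan Lum (1.83). Without both arrays 4 members passed and the median was 1.57, and without MycON exendin-4 replicate 3 the median was 0.59.

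Markers of other cells in or around an islet were closer to the median of all genes. None passed in the 11-array fit among 6 alpha cell, 7 delta and PP cell, 8 duct cell, 18 acinar cell, 16 endothelial, 5 lymphocyte, 6 granulocyte and monocyte, and 13 muscle and skin markers tested. Their medians were 0.32, 0.35, 0.21, 0.31, 0.07, -0.11, -0.23 and -0.74 in that order. The muscle and skin mean was between -0.31 and 0.08 in the MycON arrays, against 0.84, 0.34, -0.21, -0.14 and 2.40 in the MycOFF arrays. It was thus highest in 1 array, MycOFF water replicate 3, without which the muscle and skin median was -0.01. Some muscle genes were also high in MycOFF exendin-4 replicate 1, with Myh1 at 3.10, Acta1 at 3.05 and Mylpf at 2.69. Others were not, such as Tnnc2 at 0.08 in that array. Without 1 array the delta and PP cell median ran from 0.04 to 0.70, the duct cell median from -0.01 to 0.48 and the granulocyte and monocyte median from -0.46 to 0.07. The acinar mean ran from -0.52 to 1.04 in MycON and from -0.62 to 0.43 in MycOFF arrays, which overlapped. Of these lists the 52-array fit called 2 genes. Fcgr4, an IgG receptor on the granulocyte and monocyte list, was higher (limma adjusted p = 0.00536), with a difference of 1.51 ± 0.52 in the 11-array fit. Ighm was lower, with a difference of -3.13 in the 11-array fit, and without both arrays that stood apart it was -1.54 and did not pass (limma adjusted p = 0.438).

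Genes of beta cell identity did not pass in either fit. Of 27 members 20 were tested, 7 were above 0, and the median was -0.32. By injection the median was 0.11 with exendin-4 (11 of 20 above 0) and -0.64 with water (1 of 20 above 0), a difference that was not tested. The list mean was -0.47, 0.15 and 0.37 in MycON exendin-4 and -0.61, -0.23 and -0.13 in MycON water arrays, against 0.26, -1.03 and 0.96 in MycOFF exendin-4 and 1.02 and -0.23 in MycOFF water arrays. The groups overlapped, and the lowest array was MycOFF exendin-4 replicate 2. Without it the median was -0.64, without MycOFF water replicate 1 it was -0.09, without MycON water replicate 1 -0.16, without MycON exendin-4 replicate 1 -0.21, and without both arrays that stood apart -0.73, with none passing in the last. Secretory granule and exocytosis genes had a median of -0.34 over 26 of 28 with 4 above 0, and none passed; this median ran from -0.56 without MycOFF exendin-4 replicate 2 to -0.12 without MycOFF water replicate 1.

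Ucn3, the peptide urocortin 3 of mature beta cells, stood at -1.23, -0.68 and -1.29 in MycON exendin-4 and -1.08, -1.35 and 0.08 in MycON water arrays, against 1.34, 0.60 and 3.35 in MycOFF exendin-4 and 3.04 and -0.30 in MycOFF water arrays. The MycON arrays lay within a narrow range that the MycOFF arrays overlapped by 1 array. Its difference of -2.53 ± 0.65 was the largest of the list and did not pass (limma adjusted p = 0.336). Slc2a2, the glucose transporter GLUT2, differed by -1.28 ± 0.41 (limma adjusted p = 0.488), and the lineage factor Pdx1 by 0.27 ± 0.40, with -0.72 from its other probe set. Ins2, an insulin gene, stood at 0.33, 0.08 and -0.05 in MycON exendin-4 and -5.68, -1.71 and -0.30 in MycON water arrays, against -0.57, 0.25 and 0.64 in MycOFF exendin-4 and 0.45 and -0.51 in MycOFF water arrays. A single array, MycON water replicate 1, was far below the rest. The Ins2 difference was -1.12 ± 0.88, and -0.38 without that array.

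Genes known to be kept silent in mature beta cells had a median of 0.54 over 19 of 20, with 15 above 0 and none passing. By the 52-array fit the transglutaminase Tgm2 (2.40), the C-type lectin Cd302 (2.27) and Arhgdib, a protein of blood cells (1.54), were higher, and both Cd302 and Arhgdib are also made by macrophages. Without MycOFF exendin-4 replicate 2, whose mean for this list was 2.06, the median was 1.21, and without MycOFF exendin-4 replicate 3 it was 0.26. Slc16a1, the lactate and pyruvate transporter MCT1, stood at -0.57, -0.94 and -0.12 in MycON exendin-4 and -1.26, 0.15 and -0.23 in MycON water arrays, against -0.15, 0.06 and -0.60 in MycOFF exendin-4 and -0.43 and 0.18 in MycOFF water arrays. The groups overlapped and the difference was -0.31 ± 0.28 (limma adjusted p = 0.916).

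No member of the growth lists that MYC is best known for passed at 72 h in the 11-array fit, which took in 31 ribosome biogenesis genes (median -0.09, 13 above 0), 20 genes of serine, one-carbon and purine synthesis (median -0.00), 27 known MYC targets (median 0.34), 13 genes of glycolysis and lactate (0.02) and 11 ribosomal protein genes (-0.20). Single arrays moved these medians: that of the known MYC targets was 0.03 without MycOFF exendin-4 replicate 2, 0.11 without MycON exendin-4 replicate 3, 0.16 without MycOFF water replicate 3, 0.55 without MycOFF water replicate 1 and -0.10 without both arrays that stood apart, and that of ribosome biogenesis ran from -0.36 to 0.02 without 1 array. The ribosome biogenesis mean was -1.11, -0.32 and -0.05 in MycON exendin-4 and -0.85, -0.42 and -0.07 in MycON water arrays, against -0.70, -1.17 and 0.46 in MycOFF exendin-4 and 0.17 and -0.81 in MycOFF water arrays. The groups overlapped over most of their range. Its members ran from Fbl, a methyltransferase of ribosomal RNA, at 1.58 ± 1.01 to Bysl, a factor of the small subunit, at -1.26 ± 0.73. The exception by the 52-array fit was Psat1, an enzyme of serine synthesis, which stood at 1.14, 1.04 and 0.57 in MycON exendin-4 and -0.04, 0.31 and 1.62 in MycON water arrays, against -1.75, 0.40 and -1.47 in MycOFF exendin-4 and -1.75 and -2.98 in MycOFF water arrays. Only MycOFF exendin-4 replicate 2 lay within the MycON range. Psat1 differed by 2.36 ± 0.48 (limma adjusted p = 0.207, and 0.00304 by the 52-array fit), and Phgdh, the enzyme before it in that pathway, by -1.17 ± 0.30 (limma adjusted p = 0.336).

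Stress and signalling lists had no member past the threshold, and their medians were small and moved with single arrays. Medians were 0.29 for p53 and apoptosis, 0.16 for the unfolded protein response and ATF4 targets, 0.08 for heat shock, -0.07 for the interferon response, 0.12 for chemokines, cytokines and complement, 0.35 for antigen presentation and 0.32 for cAMP and CREB targets. By injection, p53 and apoptosis had 0.70 with exendin-4 and -0.14 with water, and the unfolded protein response list 0.33 with exendin-4 and -0.15 with water, differences that were not tested. Without MycOFF exendin-4 replicate 2 the p53 median was 0.08, that of the unfolded protein response 0.02 and that of cAMP and CREB targets 0.11. The cAMP and CREB target mean was 0.31, 0.30 and 0.59 in MycON exendin-4 and 0.03, 0.49 and 0.38 in MycON water arrays. In MycOFF arrays it was -0.08, 0.08 and -0.22 with exendin-4 and -0.07 and 0.01 with water. All MycON arrays but water replicate 1 thus lay above all kept MycOFF arrays for this list. Over all fits without 1 array the p53 median ran from 0.05 to 0.44, the unfolded protein response from 0.02 to 0.42, heat shock from -0.36 to 0.42, the interferon response from -0.35 to 0.09, chemokines, cytokines and complement from -0.06 to 0.52 and antigen presentation from 0.15 to 0.58. The p53 target Bbc3, a trigger of apoptosis, stood at 0.04 ± 0.31. By the 52-array fit the initiator caspase Casp8 (0.87) and the stress factor Atf3 (1.39) were higher, and Csf1, the growth factor of macrophages, was lower (-1.27). Medians were 0.45 for oxidative phosphorylation, -0.25 for cholesterol synthesis, -0.08 for the circadian clock and -0.06 for the MYC network, again with none passing. The oxidative phosphorylation median was 0.11 without MycOFF exendin-4 replicate 2, 0.19 without MycOFF water replicate 3, 0.85 without MycOFF water replicate 1 and 0.03 without both arrays that stood apart. Myc and Glp1r, the exendin-4 receptor, varied too little to be tested. Tspan4, a tetraspanin, differed by 1.80 ± 0.50 (limma adjusted p = 0.353).

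No gene passed as lower, and the 6 genes with the smallest p among those lower in MycON islets are named as such. N6amt1, a methyltransferase of a translation release factor, stood at -0.67, -0.70 and -1.05 in MycON exendin-4 and -1.47, -0.46 and -0.64 in MycON water arrays, against 0.65, 0.27 and 0.68 in MycOFF exendin-4 and 0.06 and 0.53 in MycOFF water arrays. The groups were apart. Its difference was -1.25 ± 0.22, and that of Scnn1b, a subunit of the epithelial sodium channel, was -1.34 ± 0.24 (limma adjusted p = 0.114 for each). Acvr1c, the activin and nodal receptor ALK7, differed by -1.19 ± 0.25 (limma adjusted p = 0.219), and the zinc finger factor Zbtb14 by -1.01 ± 0.21 (limma adjusted p = 0.209). The remaining pair, 1810019D21Rik and Etohd2, differed by -1.49 ± 0.29 and -1.65 ± 0.34. In each of the 6 all MycON arrays lay below all MycOFF arrays. N6amt1, 1810019D21Rik and Etohd2 were called by the 52-array fit.

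Within the injections the counts were 0 genes with water (3 arrays against 2; 384 at an unadjusted p under 0.05, or 2.91%) and 3 with exendin-4 (3 against 3; 0.0228%, all higher; 744 at an unadjusted p under 0.05, or 5.65%). The 3 were Ada, which breaks down adenosine, Cd48, a surface protein of leukocytes, and Slc15a3, chosen after their values were seen apart from the last. With water the 52-array fit called 3 genes, and the count was 17 without MycOFF water replicate 1. With exendin-4 the 52-array fit called 132, and the count was 0 without MycON exendin-4 replicate 3, 23 without MycON water replicate 3, 6 without MycOFF exendin-4 replicate 2 and 72 without both arrays that stood apart. The macrophage median was 2.37 with exendin-4 and 1.43 with water, and the mitosis median 1.64 and 1.92. The difference between the injections was not tested for these lists.

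That difference was tested gene by gene, and no gene passed (237 at an unadjusted p under 0.05, or 1.80%). The count was 7 without MycOFF water replicate 1 and 0 in the other alternatives run. Ada had the smallest p: it stood at 2.86, 2.74 and 3.16 in MycON exendin-4 and at 0.20, 0.15 and 0.28 in MycON water arrays, against 0.38, -0.03 and -0.23 in MycOFF exendin-4 and -0.11 and -0.00 in MycOFF water arrays. Only the arrays with both MYC and exendin-4 were high. The MYC effect on Ada was 2.88 with exendin-4 (limma adjusted p = 0.0062) and 0.27 with water, and the difference of 2.61 ± 0.35 did not pass (limma adjusted p = 0.452).

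The genes next by p were Fcgr4, an IgG receptor of myeloid cells, with a difference of 2.81 ± 0.59, Swap70, a signalling protein of B cells and macrophages, with 2.09 ± 0.46, Cd48 with 2.04 ± 0.47 and the zinc finger gene Zfp105 with 1.42 ± 0.34 (limma adjusted p = 1.00 for each). Cd48 stood at 2.66, 2.47 and 2.80 in MycON exendin-4 and 1.00, 0.97 and -0.15 in MycON water arrays, against 0.04, -0.03 and -0.07 in MycOFF exendin-4 and -0.02 and -0.01 in MycOFF water arrays. MycON exendin-4 arrays were highest, and MycON water replicate 3, low in macrophage markers, was at the MycOFF level. The macrophage marker mean of the same arrays is 1.81 to 3.04 with exendin-4 and -0.18 to 2.06 with water. Its part in these differences was not tested.

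**Figure D3:**
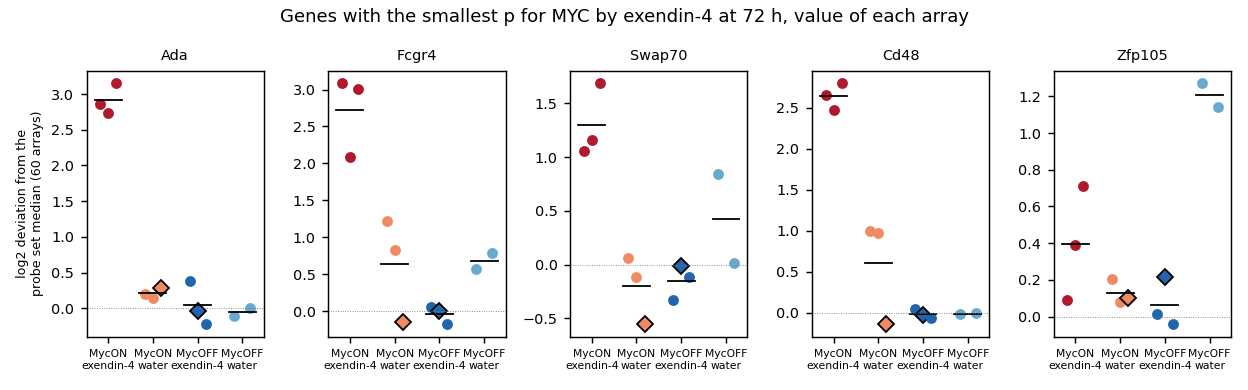
Log2 deviation from the probe set median (vertical axis) of each 72 h array for the 5 genes with the smallest p in the test of whether the MYC effect differed between exendin-4 and water, none of which passed; groups run from MycON exendin-4 to MycOFF water, lines are group means, and diamonds mark the 2 arrays that stood apart. Ada is at 2.74 to 3.16 in MycON exendin-4 arrays and at or below 0.38 in every other array.

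The MYC effect at 72 h was then set against the mean MYC effect at 4, 8, 16 and 32 h, in the fit of 52 arrays, where 41 arrays belong to the earlier times. Of the 13176 genes 185 differed (1.40%): the effect was higher at 72 h in 66 (0.501%) and lower in 119 (0.903%). This count was 342 without MycON water replicate 3, 361 without MycOFF exendin-4 replicate 2, 580 without both and 87 without MycON water replicate 1. Over the 5 times in order the macrophage median was -0.09, 0.27, 0.78, 0.70 and 1.96, and that of the lipid and lysosome list -0.21, 0.01, 0.85, 0.35 and 1.57. The ribosome biogenesis median ran the other way: 0.86, 0.99, 0.54, 1.05 and -0.12. For serine, one-carbon and purine synthesis it was 0.79, 0.80, 0.93, 1.34 and 0.01. Mitosis stood at -0.31, 1.00, 3.03, 0.44 and 1.73 and DNA replication at 0.47, 2.65, 1.87, 1.79 and 1.13.

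**Figure D4:**
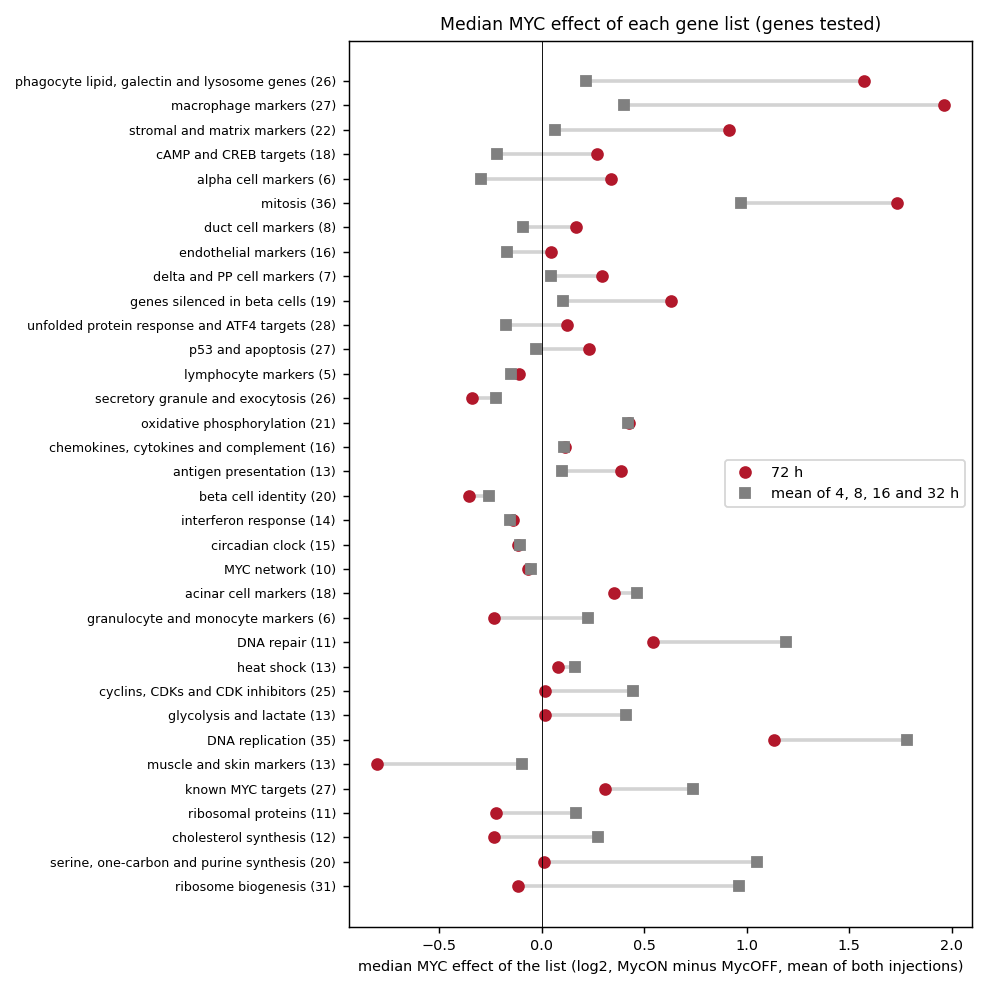
Median MYC effect (log2, MycON minus MycOFF, mean of both injections; horizontal axis) of the tested members of each of the 34 gene lists at 72 h (circles) and as the mean of 4, 8, 16 and 32 h (squares); the number of genes is in brackets. Macrophage markers lie at 1.96 at 72 h, against 0.40 earlier, and ribosome biogenesis at -0.12 at 72 h, against 0.96 earlier.

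Among the genes whose effect was higher at 72 h were 4 of 27 macrophage markers and 8 of 26 genes of the lipid and lysosome list. Over all genes tested the share was 0.501%. The markers were Cd68, Laptm5 of the lysosome membrane, Ms4a7 and the actin-binding Aif1. The 8 were Cd36, Mmp12, Ctsb, Lipa, Acp5, Mertk, Atp6v0d2, a subunit of the lysosomal proton pump, and the sugar phosphate transporter Slc37a2. Cd36 had MYC effects of -0.25, -0.36, 2.45, 2.14 and 3.97 from 4 to 72 h, and the last differed from the earlier mean by 2.97 ± 0.50 (limma adjusted p = 0.00121). Clec4n differed by 3.09 ± 0.70, and Sat1, which breaks down polyamines, by 3.07 ± 0.71. The largest difference was that of Fam107b, 3.47 ± 0.75 (limma adjusted p = 0.0107), with effects of -1.01, -0.79, 0.50, -0.74 and 2.96. Its 2 other probe sets gave 0.05 and 0.41 for the MYC effect at 72 h. Pdgfrl, a protein related to the PDGF receptor, differed by 2.84 ± 0.57.

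The effect was lower at 72 h in 5 of 31 ribosome biogenesis genes, the nucleolar proteins Nolc1, Nop2, Nop16 and Gnl3 and the small-subunit factor Bysl. It was lower in 3 of 20 genes of the synthesis list, Pfas of purine, Phgdh of serine and Ctps of CTP synthesis, and in 1 of 35 replication genes, the chromatin remodeller Hells. Over all genes tested the share with a lower effect was 0.903%. Slc16a1 had effects of 3.54, 3.70, 1.79, 2.76 and -0.31 from 4 to 72 h, and the last minus the earlier mean was -3.26 ± 0.52 (limma adjusted p = 0.00061). High at the 4 earlier times, it was near 0 at 72 h. Ak4, an adenylate kinase of mitochondria, had 2.78, 2.74, -0.17, 2.76 and -0.65, a difference of -2.68 ± 0.46. Polr3g, a subunit of RNA polymerase III, had 2.05, 1.84, 0.30, 2.59 and -0.92, a difference of -2.62 ± 0.36 (limma adjusted p = 0.000103). Both were also low at 16 h.

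Nolc1 had effects of 2.13, 1.85, 0.99, 2.11 and -0.86, with a difference of -2.63 ± 0.50, while its 2 other probe sets gave 1.15 and 0.23 at 72 h against the -0.84 of the set used. Pfas had 1.73, 2.13, 1.51, 2.38 and -0.68, a difference of -2.62 ± 0.55. The E-box CACGTG was in 13.9% of the 101 promoters of genes with a lower effect at 72 h and in 5.88% of the 51 of genes with a higher effect, against 11.3% of all promoters. Psat1, of the same pathway as Phgdh, kept an effect of 2.43 at 72 h, and its difference from the earlier mean of -0.23 ± 0.53 did not pass (limma adjusted p = 0.96). Mcm5 likewise stood at 2.95 at 72 h, with a difference of -0.18 ± 0.84 from the earlier mean (limma adjusted p = 0.991).

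**Figure D5:**
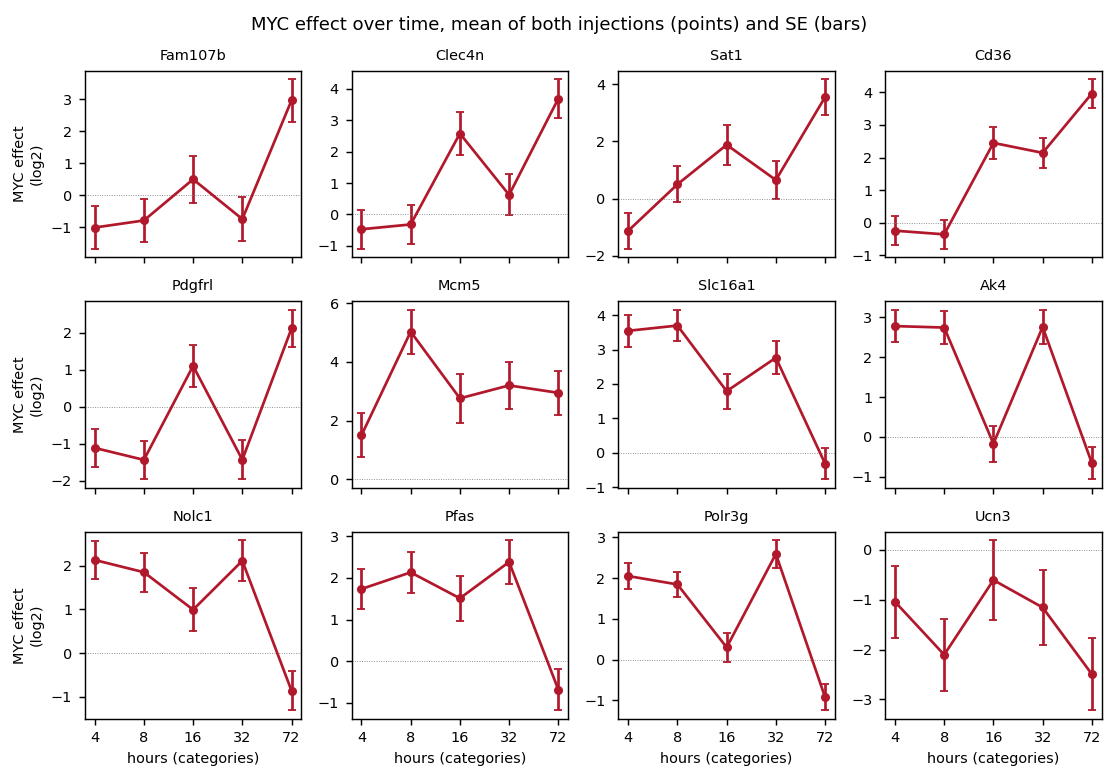
MYC effect (log2, MycON minus MycOFF, mean of both injections; vertical axis) at 4, 8, 16, 32 and 72 h (horizontal axis, as categories) for the 10 genes with the largest differences between 72 h and the earlier times and for Mcm5 and Ucn3; bars are SE. Slc16a1 falls to -0.31 at 72 h, with 1.79 to 3.70 before, and Cd36 is at 3.97 at 72 h.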

How the data were processed

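The authors deposited log2 expression, centred per probe set, for 45101 probe sets on 60 Affymetrix arrays; MAS5 and GCRMA are named, without role or version, in the submitters' processing notes, and the rest of the upstream work is not given in the sources used here. No source states the log base, which was taken as 2. In 100% of probe sets the median over the 60 arrays was 0 (tolerance 1e-04), so levels were lost, and a planned filter on mean level was replaced by one on spread. Symbols came from the array annotation: 34945 probe sets had 1, 932 several and 9160 none, and 64 were controls; 34741 were matched by Entrez number to RefSeq on GRCm38.p6 and 0 needed updating. Probe sets with 1 symbol and an interquartile range over the 52 kept arrays at or above the 40th percentile (0.101 log2 units) were kept, 27022 of all probe sets passed, and the widest stood for its gene: 13176 of 18193 named genes were tested. This filter includes the 72 h arrays and favours genes that differ there. Of 732 list members over 34 lists, with overlaps, 596 were tested. Some list members are not reported here.

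The fit was limma 3.58.1 in R 4.3.3 (with the data.table package, version 1.17.8) on 11 arrays with MYC and injection as terms (8 residual and 2.31 prior degrees of freedom), moderated with eBayes, with Benjamini-Hochberg adjusted p under 0.05. Effects within injections and their difference came from 4 group means, and the contrast with earlier times from 20 group means over 52 arrays. Promoter motifs and figures used Python 3.11.15 (pandas 2.3.3, numpy 2.4.6, matplotlib 3.10.9). The scripts were tested on simulated data. The number of arrays limits the precision.

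The members and gene lists were chosen with earlier results of these data known. Genes were named as follows: those past the threshold with 1 sign in both injections, or the 6 smallest p where none passed; up to 4 passing members per list; a set of fixed genes; the 5 largest differences each way between 72 h and earlier times; and the 5 smallest p between injections. Other list members were named after their values were seen. Alternatives were the fit over 52 arrays, the left-out arrays, no injection term, the replicate number as a block, quantile normalization, array weights, no filter, spread over the 41 arrays of other times, the mean over probe sets, robust eBayes and leaving out each array.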

Additional observations from a re-analysis of the deposited data

Results flagged for a closer look

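In 10 of 148 groups of values tested, 1 array lay far from the rest of its group; chance gives about 1 in 20 such groups. Among named genes, Lgals3 was at 1.46 in MycON water replicate 3, with the next MycON array at 3.54. Ins2 was at -5.68 in MycON water replicate 1, with -1.71 next. Ak4 was at 0.89 in MycON water replicate 2 and Bbc3 at -0.85 in MycON exendin-4 replicate 1. In the MycOFF group Tspan4 was at 0.69 in exendin-4 replicate 2, with -1.61 next, and Zbtb14 at 1.34 in exendin-4 replicate 1.

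Of the list means, DNA repair was at 1.87 and cholesterol synthesis at 0.0556 in MycON water replicate 3, with the nearest MycON arrays at 0.37 and -0.40. In MycOFF exendin-4 replicate 2 chemokines, cytokines and complement were at 2.25 and stromal markers at 1.93, with the nearest MycOFF arrays at 0.21 and -0.04.

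The test of 72 h against earlier times found 185 genes whose MYC effect differed. The largest differences were 3.47 for Fam107b, 3.09 for Clec4n, 3.07 for Sat1, 2.97 for Cd36 and 2.84 for Pdgfrl, and on the lower side -3.26 for Slc16a1, -2.68 for Ak4, -2.63 for Nolc1, -2.62 for Pfas and -2.62 for Polr3g.

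The MycOFF water array that the submitters left out had Ighm at 12.8, above the highest kept MycOFF array at 9.33.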

How the results depend on the processing

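The 5 genes higher at 72 h were 182 by the fit over 52 arrays, 0 with the array the submitters left out, 2 without the injection term, 31 with array weights, 1 with no filter on spread, 1 with spread taken over the 41 arrays of other times, 0 with the mean over probe sets, 1 with robust eBayes and 0 to 52 without 1 array. Quantile normalization gave 5. With exendin-4 the 3 genes were 132 by the fit over 52 arrays, 0 with the left-out array, 117 with array weights and 0 to 23 without 1 array. With water the count of 0 was 3 by the fit over 52 arrays and 0 to 17 without 1 array, and the count of 0 for the difference between injections was 0 to 7. The 185 genes whose MYC effect differed between 72 h and earlier times were 19 with all 60 arrays, 332 with the mean over probe sets, 310 after quantile normalization, 266 with array weights (whose estimation stopped short of its convergence tolerance) and 87 to 361 without 1 array. Leaving out both arrays that stood apart, chosen after seeing the data, gave 133 genes for the MYC effect, 72 with exendin-4 and 580 against earlier times. The cause of these moves was not tested. With the replicate number as a block the counts were 0 for the MYC effect, 0 with exendin-4 and 185 against earlier times. Arrays of different groups deviated together (correlation over 0.1) in 3 of 15 pairs with the same number and 12 of 30 with different numbers. Deviations within a group of 2 or 3 arrays are tied to each other, so this check cannot tell whether the numbers pair the arrays. No named gene that passed changed sign under any alternative run. Among named genes that passed under none of these settings, the difference changed sign for Bbc3 (-0.00197 with the block and -0.24 to 0.27 without 1 array), for Cdkn2d (-0.0325 with array weights, -0.16 without both arrays that stood apart and -0.0862 to 0.36 without 1 array) and for Pdx1 (-0.23 with the mean over probe sets and -0.0270 to 0.51 without 1 array). Signal over background was not measured.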

Other observations

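By the fit over 52 arrays, genes outside the lists were also higher in MycON islets at 72 h; those named here were picked after their values were seen. The chemokine Cxcl14 stood at 4.73, 2.91 and 4.41 in MycON exendin-4 and 1.54, 1.65 and -0.10 in MycON water arrays, against 0.04, -0.08 and -0.39 in MycOFF exendin-4 and -0.14 and 0.09 in MycOFF water arrays. MycON exendin-4 arrays were highest and MycON water replicate 3 was at the MycOFF level. Cxcl14 differed by 2.61 ± 0.29 in that fit (limma adjusted p = 4.95e-07) and by 2.78 ± 0.62 in the fit of 11 arrays (limma adjusted p = 0.263). The smaller SE takes in the spread at other times and understates that of the 11 arrays for this gene. Clec7a, the beta-glucan receptor dectin-1 of myeloid cells, differed by 3.95 ± 0.70 in the fit of 11 arrays (limma adjusted p = 0.114) and by 4.92 without both arrays that stood apart (limma adjusted p = 0.00144). MycON water replicate 3 was set apart by its macrophage markers, so the value without it follows in part from that choice and adds no support.

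The following genes, also picked after their values were seen, had a MYC effect that was lower at 72 h than at the earlier times. Fasn, the fatty acid synthase, differed by -1.43 ± 0.38 (limma adjusted p = 0.0498), and Acaca, which makes its malonyl-CoA, by -1.36 ± 0.35 (limma adjusted p = 0.04). Their MYC effect at the earlier times averaged 1.07 for Fasn and 0.62 for Acaca. Dctd, a deaminase of pyrimidine nucleotides, differed by -1.93 ± 0.26 (limma adjusted p = 0.000103). The amino acid exchanger Slc1a4 was lower in MycON islets by the fit over 52 arrays, with -1.59 ± 0.34 (limma adjusted p = 0.00966), and the DNA methyltransferase Dnmt3b with -1.50 ± 0.39 (limma adjusted p = 0.0409).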
